A study of Mus musculus with 6 samples.

Results

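The genes described here are 10 genes of brown fat heat production, matched by their symbols among the 55335 genes counted in mouse aorta: Ucp1, Cidea, Dio2, Elovl3, Ppargc1a, Prdm16, Ppara, Cox7a1, Cox8b and Fabp3. RNA was sequenced from the aorta of 3 young mice aged 6 weeks and 3 aged mice aged 6 months, with 1 library per mouse. All 6 were wild-type C57BL/6 mice without treatment (labelled c57b6l), which the study describes as male. The study took the vessel free of surrounding fat under a stereomicroscope, so the values describe a dissected aorta with whatever fat stayed on it. All 10 genes had enough counts to be tested, as did 16612 genes in all, and aged was compared with young aorta over the 3 mice of each age.

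Brown adipocytes burn fatty acids to make heat. The hormone noradrenaline acts on beta adrenergic receptors, lipases release fatty acids, mitochondria oxidize them, and UCP1 in the inner mitochondrial membrane lets protons return without making ATP. The thoracic aorta of mice is surrounded by fat of this brown type, whereas the vessel wall itself is made of smooth muscle, endothelium and fibroblasts. In a bulk sample such as these, fewer adipocytes and less RNA per adipocyte cannot be told apart.

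The libraries held between 31049632 and 45832185 counted reads. Acta2, the actin of smooth muscle, was at 12229 to 18120 CPM (counts scaled by library size after TMM normalization), and Adipoq, the adipocyte hormone adiponectin, at 13.5 to 94.3 CPM. Young replicate 1 stood apart in 3 respects. It had 306 CPM of Xist, an RNA of female cells, against at most 0.636 CPM in the other libraries, which goes against the male description. Arntl, a gene of the daily clock, was at 49.8 CPM there and at 0.747 to 8.14 CPM elsewhere. Its 15 cardiac muscle genes summed to 492 CPM against 58.6 to 81.1 CPM. Aged replicate 2 lay at -13.4 on the first principal component of all genes, within the range of the young libraries (-52.2 to -10.3) and apart from the other aged libraries at 53.8 and 62.7. On the second component it was apart from every other library, at 69.3 where the others ran from -57.8 to 9.0. The directions of the 10 genes are also given without young replicate 1 and without aged replicate 2. Those of the adipocyte, brown fat and oxidation lists are given without aged replicate 2, and that of the cardiac list without young replicate 1.

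Most of the heat-producing genes varied widely between mice of the same age, and no difference between the ages passed the test. Of the 10 genes, 0 passed an adjusted p of 0.05 in edgeR's quasi-likelihood test, where 0 of all 16612 genes passed (0%), 1723 genes had an unadjusted p under 0.05, DESeq2 called 338 genes and limma called 0. Ucp1, Cidea, Cox7a1, Cox8b, Fabp3, Ppara and Elovl3, 7 of the 10 genes, had their highest level in aged replicate 2, which held the highest level of 17.7% of all tested genes. In 7 of the 10 genes, the same without Elovl3 and with Ppargc1a, aged replicate 2 and young replicate 2 were the 2 highest libraries, against 7.31% of all tested genes. Dio2 and Prdm16 followed neither pattern.

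**Figure D1:**
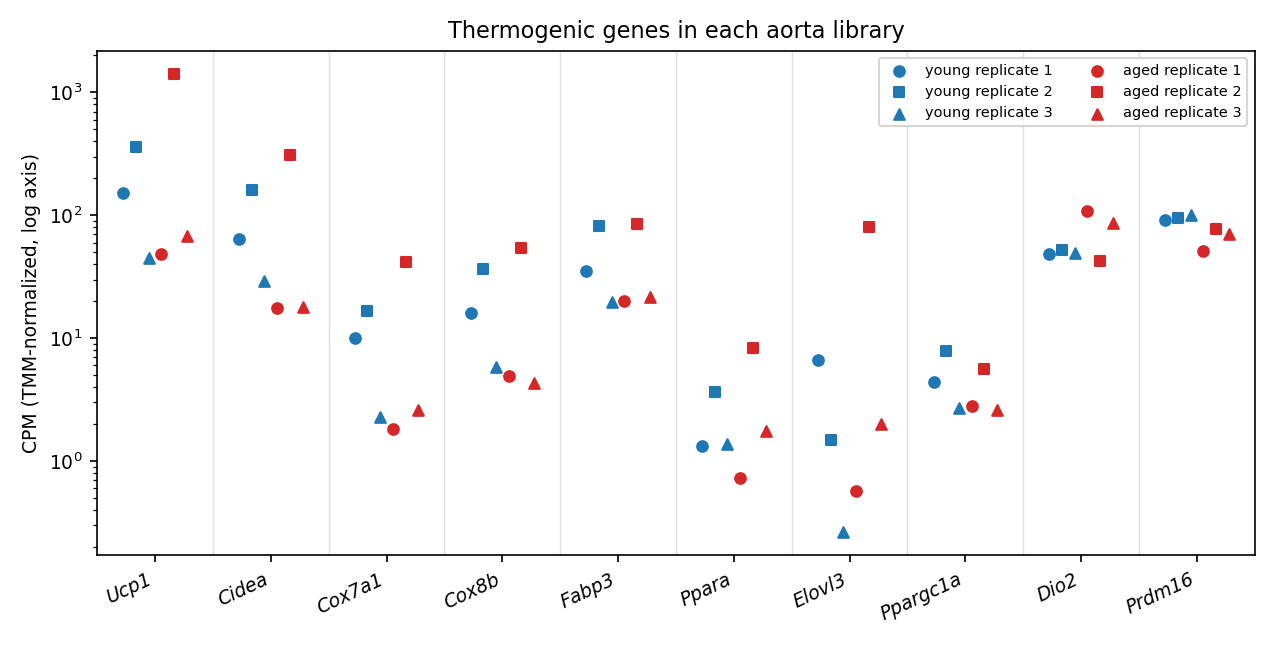
Level of each of the 10 thermogenic genes (vertical axis, TMM-normalized CPM on a log axis) in the 3 young (blue) and 3 aged (red) aorta libraries, 1 point per library. Aged replicate 2, the red square, is the highest point in 7 genes, reaching 1422 CPM for Ucp1, whereas Prdm16 is the gene in which every aged point lies below every young point.

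Compared per length as FPKM (reads scaled for gene length and for library total), the genes spanned a wide range of levels. In young aorta the order from the top was Ucp1 at 111 ± 96.1 FPKM (SD, n = 3), Cidea at 74.4 ± 60.8, Fabp3 at 53.8 ± 38.3, Cox8b at 52.9 ± 43.1 and Cox7a1 at 17.7 ± 13.2. Below these came Prdm16 at 9.99 ± 0.642 FPKM, Dio2 at 8.38 ± 0.489, Elovl3 at 1.35 ± 1.63, Ppargc1a at 0.739 ± 0.393 and Ppara at 0.532 ± 0.343 (SD, n = 3 each). Neighbours in this order overlapped between libraries, apart from Prdm16 with Dio2 and Dio2 with Elovl3. In aged aorta Ucp1 was again at the top with 268 ± 413 FPKM (SD, n = 3), followed by Cidea at 88.5 ± 130, Cox8b at 50.1 ± 68.3, Fabp3 at 43.7 ± 39.4 and Cox7a1 at 24.5 ± 36.5. Elovl3 at 11.9 ± 19.8 FPKM, Dio2 at 11.4 ± 4.91, Prdm16 at 5.93 ± 1.24, Ppara at 0.794 ± 0.921 and Ppargc1a at 0.469 ± 0.223 (SD, n = 3 each) came after them. Only Prdm16 and Ppara did not overlap among neighbours in the aged order. The SD exceeded the mean in aged aorta for Ucp1, Cidea, Cox8b, Cox7a1, Elovl3 and Ppara.

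Ucp1, the uncoupling protein that defines the brown adipocyte, lies on chromosome 8 of GRCm38 from 83290352 to 83298452 (GENCODE M21, plus strand). It was at 153, 361 and 45.2 CPM in young replicates 1, 2 and 3 and at 48.6, 1422 and 67.4 CPM in aged replicates 1, 2 and 3. Aged replicate 2 was far above the rest, and the other aged libraries lay inside the young range. The mean was 186 ± 160 CPM in young and 513 ± 788 CPM in aged aorta (SD, n = 3 each), and the log2FC (the base 2 logarithm of aged over young, fitted by edgeR) was 1.46 (SE 1.32, 95% interval -1.63 to 4.55, edgeR adjusted p = 0.708). From the lowest to the highest library Ucp1 spanned 31.5-fold, a span that 0.515% of 15540 tested genes with more than 3 counts in every library reached, where the median gene spanned 1.93-fold. Within aged aorta the level in replicate 2 was 24.5 times the mean of the other aged libraries, and within young aorta replicate 2 was 7.98 times replicate 3.

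Cidea and Elovl3 act on the lipid of brown adipocytes. Cidea, a protein of the lipid droplet surface on chromosome 18 from 67343604 to 67367785, was at 63.8, 162 and 29.0 CPM in young replicates 1, 2 and 3 and at 17.6, 311 and 18.0 CPM in aged replicates 1, 2 and 3. The order of libraries resembled that of Ucp1, with aged replicates 1 and 3 below every young library. Its log2FC was 0.44 (SE 1.16, 95% interval -2.27 to 3.16, edgeR adjusted p = 0.908). Elovl3, an enzyme that lengthens fatty acids, lies on chromosome 19 from 46131897 to 46135694. It was at 6.67, 1.49 and 0.262 CPM in young replicates 1, 2 and 3 and at 0.572, 80.3 and 2.02 CPM in aged replicates 1, 2 and 3, from 323, 52, 9, 19, 3031 and 57 counts. Here young replicate 1, not young replicate 2, was the next highest library, and aged replicate 2 stood 53.8 times above young replicate 2. Its span of 306-fold was reached by 0.0193% of genes. The log2FC of Elovl3 was 3.28 (SE 1.80, 95% interval -0.95 to 7.51, edgeR adjusted p = 0.562).

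Cox7a1 and Cox8b encode the forms of cytochrome c oxidase subunits found in heart, skeletal muscle and brown fat. Cox7a1, on chromosome 7 from 30184144 to 30186078, was at 10.1, 16.7 and 2.27 CPM in young replicates 1, 2 and 3 and at 1.84, 41.5 and 2.58 CPM in aged replicates 1, 2 and 3. Cox8b, on the same chromosome from 140898945 to 140900446, was at 16.0, 36.8 and 5.80 CPM in the young and at 4.96, 54.2 and 4.32 CPM in the aged libraries in the same order. Both repeated the order of aged replicate 2, young replicate 2 and young replicate 1 at the top. Between the ages, the log2FC was 0.66 for Cox7a1 (SE 1.20, 95% interval -2.16 to 3.49, edgeR adjusted p = 0.861) and 0.12 for Cox8b (SE 1.05, 95% interval -2.35 to 2.59, edgeR adjusted p = 0.977). Heart muscle markers did not follow these genes. Myh6, the heavy chain of atrial myosin, was at 79.7, 8.22 and 13.1 CPM in young and 7.49, 0.875 and 2.90 CPM in aged replicates 1, 2 and 3, and Cox6a2, another subunit form of heart and skeletal muscle, was at 9.02 CPM in young replicate 1 and at most 0.379 CPM in the other libraries. All 11 tested cardiac genes were highest in young replicate 1 and 0 in aged replicate 2, and all 11 were lower in aged aorta (median log2FC -2.23, 6 at an unadjusted p under 0.05). Without young replicate 1, 7 of the 11 were lower and 4 higher, with a median of -0.50. In that fit 0 of the lower and 1 of the higher ones had an unadjusted p under 0.05. The 13 skeletal muscle genes summed to 32.2, 14.2 and 12.0 CPM in young and to 16.3, 30.6 and 18.1 CPM in aged replicates 1, 2 and 3, so this list was high in aged replicate 2 and not in young replicate 2, and its part in the levels of Cox7a1 and Cox8b was not tested.

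Fabp3, a carrier of fatty acids in the cytoplasm of brown fat, heart and muscle, lies on chromosome 4 from 130308595 to 130315463. It was at 34.9, 81.4 and 19.8 CPM in young replicates 1, 2 and 3 and at 19.9, 85.6 and 21.6 CPM in aged replicates 1, 2 and 3, so the replicates numbered 2 of both ages were close to each other. Fabp3 had log2FC -0.10 (SE 0.70, 95% interval -1.73 to 1.54, edgeR adjusted p = 0.970). Its pseudogene Fabp3-ps1 held 6.21% to 11% as many counts as Fabp3, and Zcchc17, which overlaps it on the opposite strand, held 809 to 1508 counts. Whether counting used the strand is not given in the sources used here, so reads of these genes cannot be fully told apart.

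The regulators Ppara and Ppargc1a were low. Ppara, the nuclear receptor that switches on fatty acid oxidation, lies on chromosome 15 from 85734983 to 85802819 and was at 1.32, 3.68 and 1.37 CPM in young replicates 1, 2 and 3 and at 0.722, 8.35 and 1.77 CPM in aged replicates 1, 2 and 3. The coactivator Ppargc1a, which drives the making of mitochondria, lies on chromosome 5 from 51454250 to 51567726 and was at 4.44, 7.90 and 2.71 CPM in the young and at 2.83, 5.62 and 2.62 CPM in the aged libraries. Ppara was again highest in aged replicate 2, whereas Ppargc1a was highest in young replicate 2 and spanned 3.02-fold, a span that 25.8% of genes reached. Age differences in log2FC were 0.77 for Ppara (SE 0.88, 95% interval -1.29 to 2.84, edgeR adjusted p = 0.771) and -0.44 for Ppargc1a (SE 0.48, 95% interval -1.57 to 0.68, edgeR adjusted p = 0.760).

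Dio2, the deiodinase that makes active thyroid hormone inside brown adipocytes, ran the other way. The gene, on chromosome 12 from 90724552 to 90738438 (minus strand), was at 48.0, 52.3 and 49.8 CPM in young replicates 1, 2 and 3 and at 109, 42.3 and 86.1 CPM in aged replicates 1, 2 and 3. The young libraries were nearly level, and aged replicate 2 was the lowest of the 6 while the other aged libraries were the highest. The log2FC was 0.66 (SE 0.32, 95% interval -0.09 to 1.42, unadjusted p = 0.0761 and edgeR adjusted p = 0.524). Fibroblast genes had the same high libraries, since the 6 genes of that list summed to 1858, 2128 and 2856 CPM in young and to 6578, 1704 and 4830 CPM in aged replicates 1, 2 and 3. Pdgfra, a receptor of fibroblasts, was at 44.0, 48.2 and 52.7 CPM in young and at 170, 54.5 and 134 CPM in aged replicates 1, 2 and 3, and the part of these cells in the level of Dio2 was not tested. Without aged replicate 2 the log2FC of Dio2 was 0.97 (edgeR adjusted p = 0.0732).

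Prdm16 was the only one of the 10 genes whose age groups did not overlap. This zinc finger protein, which directs precursor cells toward brown fat and is also made in other tissues, lies on chromosome 4 from 154316125 to 154636873. It was at 92.2, 94.6 and 99.7 CPM in young replicates 1, 2 and 3 and at 50.9, 77.8 and 70.0 CPM in aged replicates 1, 2 and 3, so every aged library lay below every young library. The log2FC was -0.53 (SE 0.19, 95% interval -0.97 to -0.09, unadjusted p = 0.0250 and edgeR adjusted p = 0.424). An unadjusted p under 0.05 with a lower level was found for 4.82% of all tested genes and with a higher level for 5.56%, and groups without overlap were lower in 8.78% and higher in 7.74% of genes. Hence 1 of 10 genes past either mark was close to the background. The smooth muscle list was lower as well, with 8 of 8 genes lower in aged aorta, 4 of them at an unadjusted p under 0.05, and a summed level of 32928 to 40870 CPM in young and 28472 to 33784 CPM in aged aorta, and its part in the level of Prdm16 was not tested. Leaving out young replicate 1 gave a log2FC of -0.54 (unadjusted p = 0.0511, edgeR adjusted p = 0.440).

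**Figure D2:**
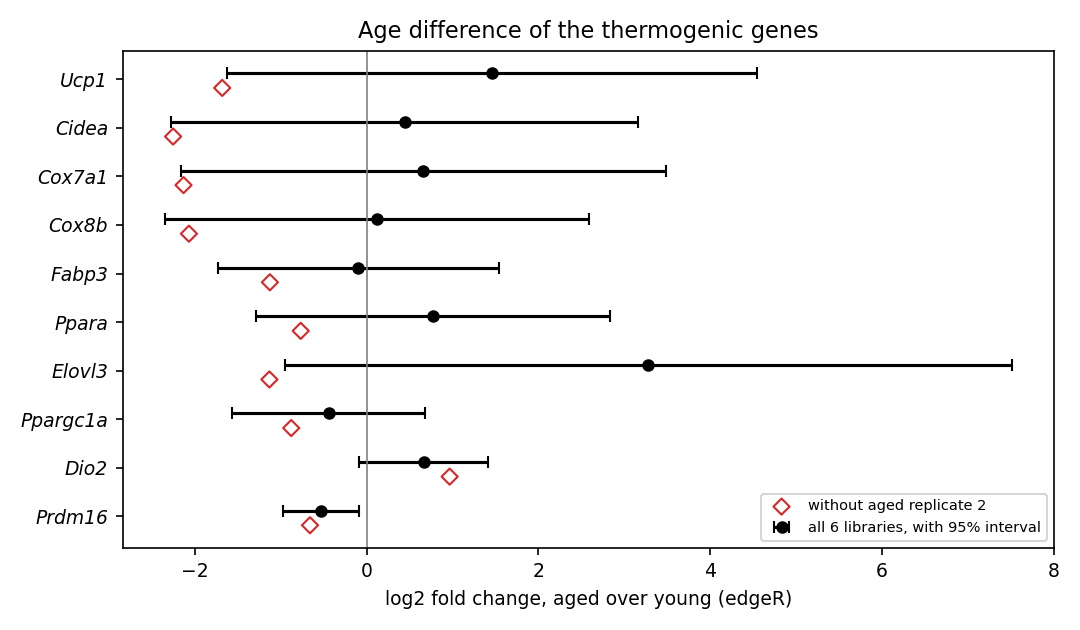
Log2FC of aged over young aorta for each gene from edgeR with its 95% interval over all 6 libraries (black), and the estimate without aged replicate 2 (red diamonds). The interval of Prdm16 alone lies on one side of 0, and without aged replicate 2 all diamonds but that of Dio2 lie below 0.

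Over the 10 genes, 7 had a positive and 3 a negative log2FC, with a median of 0.55 where the median over all tested genes was 0.02. The positive directions, all but that of Dio2, rested on aged replicate 2. Without it, 9 genes were lower and 1, Dio2, was higher, and Ucp1 went from 1.46 to -1.68, Cidea from 0.44 to -2.25, Elovl3 from 3.28 to -1.13, Cox7a1 from 0.66 to -2.13 and Cox8b from 0.12 to -2.07 (edgeR, log2FC). Cidea, Cox7a1, Cox8b, Dio2 and Prdm16 had an unadjusted p under 0.05 in that fit, 4 of them lower and Dio2 higher, where 5.57% of all genes were lower and 8.19% higher at such a p. After adjustment 0 of the 10 genes passed (lowest edgeR adjusted p = 0.0732), whereas 110 of all 17147 genes tested did. Without young replicate 1, 7 genes were higher and 3 lower, as with all libraries.

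The level of Ucp1 over the 6 libraries was followed most closely by those of Lipe and Pnpla2, which release fatty acids from stored fat. On log2 CPM, the genes most alike among 14075 compared were Lipe, the hormone-sensitive lipase (Pearson r = 0.999, Spearman rho = 0.943 over 6 libraries), Pnpla2, the first lipase of triglyceride breakdown (r = 0.998, rho = 1), 4931406C07Rik, Coq9, Sucla2, Egln1, Plbd1, Hadhb, Sh2b2 and Sdha, with r of at least 0.987. These values describe 6 libraries in which aged replicate 2 is an end point, 340 genes had an r of 0.9 or above, and all values of a library share its depth and scaling. Pnpla2 was at 138, 221 and 86.0 CPM in young and at 91.7, 392 and 108 CPM in aged replicates 1, 2 and 3, the same order of libraries as Ucp1 over a narrower span. Among the 10 genes r with Ucp1 was 0.980 for Cox7a1, 0.962 for Cidea, 0.956 for Cox8b, 0.952 for Fabp3, 0.926 for Ppara, 0.868 for Elovl3 and 0.828 for Ppargc1a, but 0.257 for Prdm16 and -0.64 for Dio2.

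Start regions are shown for Ucp1, for a gene that followed it and for the gene with the lowest r. Promoter windows of 300 bases, from 250 before to 50 after the start, were matched in RefSeq (GRCm38.p6) for 8 of the 10 genes, all but Cidea and Elovl3. Their starts are those of RefSeq, which can differ from the GENCODE spans given above. The window of Dio2 lies beyond its GENCODE end at 90738438, and that of Ppara, from 85735526, lies inside its GENCODE span. The 250 bases before the start are given 5′ to 3′ on the strand of the gene for Ucp1 (chr8:83290098-83290347, plus strand), for Cox8b, which followed Ucp1 at an r below those of Cox7a1 and Cidea (chr7:140900447-140900696, minus strand), and for Dio2, of the lowest r (chr12:90739039-90739288, minus strand). Capitals mark matches on either strand to the letters TGACG (the core of the cyclic AMP response element) or TGACGTCA (its full form), to AGGTCA (a half-site of nuclear receptors), to AAGGTCA (the same extended by a base) and to TATAAA (the TATA box).
Ucp1: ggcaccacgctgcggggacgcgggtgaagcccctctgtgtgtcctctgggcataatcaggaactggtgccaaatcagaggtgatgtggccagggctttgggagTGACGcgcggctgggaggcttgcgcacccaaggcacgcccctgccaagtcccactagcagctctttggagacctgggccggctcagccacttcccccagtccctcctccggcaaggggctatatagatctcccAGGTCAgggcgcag
Cox8b: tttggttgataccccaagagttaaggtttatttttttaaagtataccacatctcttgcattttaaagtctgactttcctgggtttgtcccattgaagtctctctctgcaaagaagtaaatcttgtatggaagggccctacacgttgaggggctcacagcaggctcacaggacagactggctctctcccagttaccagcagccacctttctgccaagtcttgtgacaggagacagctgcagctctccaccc
Dio2: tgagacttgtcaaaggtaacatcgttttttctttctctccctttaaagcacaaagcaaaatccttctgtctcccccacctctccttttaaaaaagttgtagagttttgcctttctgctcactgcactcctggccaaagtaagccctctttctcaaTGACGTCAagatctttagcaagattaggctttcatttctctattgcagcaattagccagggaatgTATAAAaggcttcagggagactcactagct
In Ucp1 the first base of TGACG lay at -147 and that of AGGTCA at -14 from the start. Dio2 held TGACGTCA from -95, which contains TGACG on both strands, and TATAAA from -30. The stretch of Cox8b held none of these letters, and its window of 300 bases held TATAAA at 4 after the start. TGACG was in the windows of 5 of the 8 genes (Ucp1, Dio2, Ppargc1a, Ppara and Fabp3) and in 20.8% of 32851 promoter windows, TGACGTCA in 1 and 1.79%, AGGTCA in 1 and 16.3%, AAGGTCA in 0 and 4.72%, and TATAAA in 2 and 13.6%. These matches describe letters in a window, and say nothing of binding.

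Genes that mark adipocytes of any kind had the same high libraries, with aged replicate 2 and young replicate 2 at the top for 10 of 12. The 12 general adipocyte genes summed to 651, 1113 and 232 CPM in young and to 240, 3052 and 368 CPM in aged replicates 1, 2 and 3, beside 430, 818 and 256 CPM in young and 257, 2128 and 276 CPM in aged replicates for the 10 heat-producing genes. In this list 11 of 12 genes were highest in aged replicate 2, 9 were higher and 3 lower in aged aorta, and 0 had an unadjusted p under 0.05, with a median log2FC of 0.41. Adipoq was at 38.7, 87.1 and 17.8 CPM in young and at 13.5, 94.3 and 23.5 CPM in aged replicates 1, 2 and 3. Between the 2 libraries that lead both lists, the level in aged replicate 2 over that in young replicate 2 ranged from 0.644 to 6.23 over the 12 adipocyte genes (median 1.58) and from 0.711 to 53.8 over the 10 heat-producing genes (median 1.70). The ratio was 1.08 for Adipoq, 2.44 for Lipe and 6.23 for Gpd1. It was 53.8 for Elovl3, 3.94 for Ucp1, 2.49 for Cox7a1, 2.27 for Ppara, 1.92 for Cidea, 1.47 for Cox8b, 1.05 for Fabp3, 0.822 for Prdm16, 0.809 for Dio2 and 0.711 for Ppargc1a. Hence the ranges of both lists overlapped, and their difference was not tested. Without aged replicate 2, all 12 adipocyte genes were lower in aged aorta, 3 of them at an unadjusted p under 0.05, with a median log2FC of -1.30. Gpd1, an enzyme that makes the glycerol backbone of fat, was at 229, 301 and 75.7 CPM in young and at 72.4, 1872 and 80.0 CPM in aged replicates 1, 2 and 3. White adipocyte genes were arranged otherwise, with a sum of 231, 535 and 118 CPM in young and of 159, 233 and 227 CPM in aged replicates 1, 2 and 3. Of their 8 tested genes, 2 were highest in aged replicate 2, 3 were higher and 5 lower in aged aorta, with a median log2FC of -0.31, and 0 had an unadjusted p under 0.05. Car3, a carbonic anhydrase of white fat, reached 429 CPM in young replicate 2 and was at 87.7 to 174 CPM in the other libraries.

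**Figure D3:**
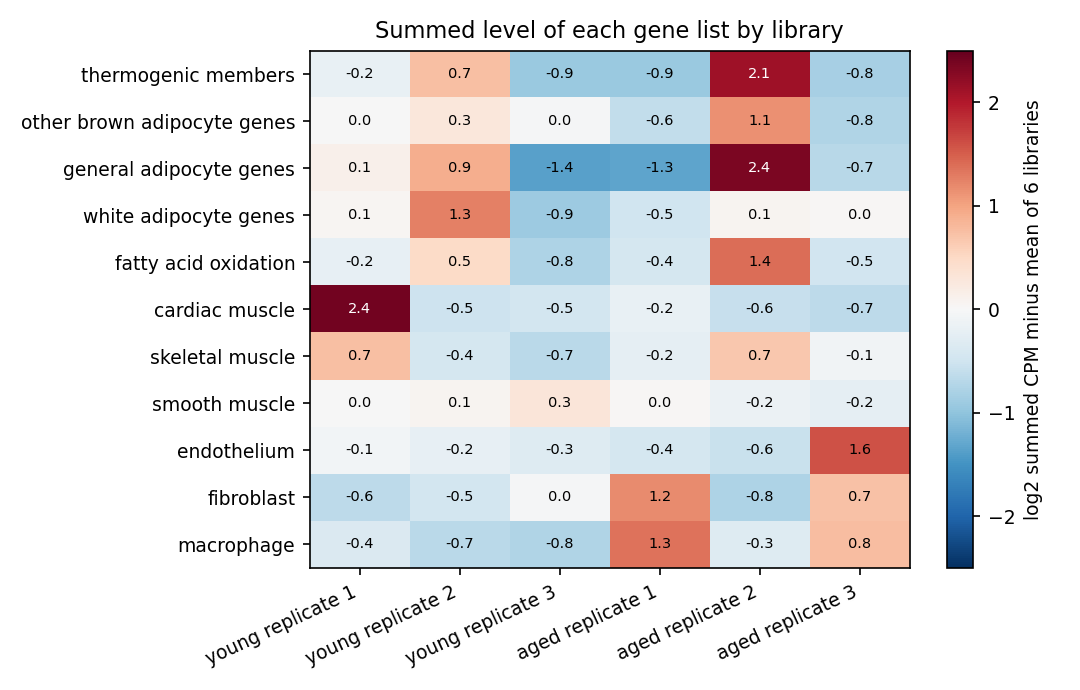
Summed CPM of each gene list in each library, as the log2 difference from the mean of the 6 libraries (colour and printed value, in log2 units). A sum is led by its highest genes, such as Ucp1, Gpd1 and Car3, and need not describe every gene of its list. The thermogenic genes (2.1), the general adipocyte genes (2.4) and fatty acid oxidation (1.4) are high in aged replicate 2, white adipocyte genes (1.3) in young replicate 2, cardiac muscle (2.4) in young replicate 1, endothelium (1.6) in aged replicate 3, and fibroblast and macrophage genes in aged replicates 1 and 3.

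Each gene was therefore also read against the adipocyte genes of its own library, as log2(CPM + 0.5) less the mean of the 12 general adipocyte genes. Ucp1 was at 2.49, 2.74 and 1.94 in young and at 2.08, 4.0 and 1.93 in aged replicates 1, 2 and 3 on this scale. The spread of Ucp1 shrank, and aged replicate 2 was still the highest. Its difference of aged from young was 0.28 (2.39 ± 0.41 in young, 2.67 ± 1.15 in aged, SD, n = 3 each, exact two-sided permutation test, p = 0.9). Elovl3 had the greatest difference of the 10 genes, at -1.93, -4.76 and -3.97 in young and -3.44, -0.14 and -2.82 in aged replicates 1, 2 and 3, with overlap between the groups. That difference was 1.42 (exact two-sided permutation test, p = 0.4). The differences were 0.53 for Dio2, 0.24 for Ppara, -0.22 for Fabp3, -0.27 for Cox7a1, -0.38 for Ppargc1a, -0.50 for Cox8b, -0.54 for Cidea and -0.57 for Prdm16, with exact p of 0.3 to 0.8. All 10 adjusted p were 0.875 or above (Benjamini-Hochberg over 10 genes), and 3 mice against 3 cannot give a p under 0.1. Lowest in aged replicate 2 on this scale were Dio2 at -1.06, Prdm16 at -0.19, Ppargc1a at -3.86 and Fabp3 at -0.051. The subtracted adipocyte level was itself highest there, at 6.48 against 3.54 to 5.76 in the other libraries. A gene that does not rise with the adipocyte genes therefore comes out low in aged replicate 2 by the subtraction, so these low values do not show less RNA per adipocyte.

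**Figure D4:**
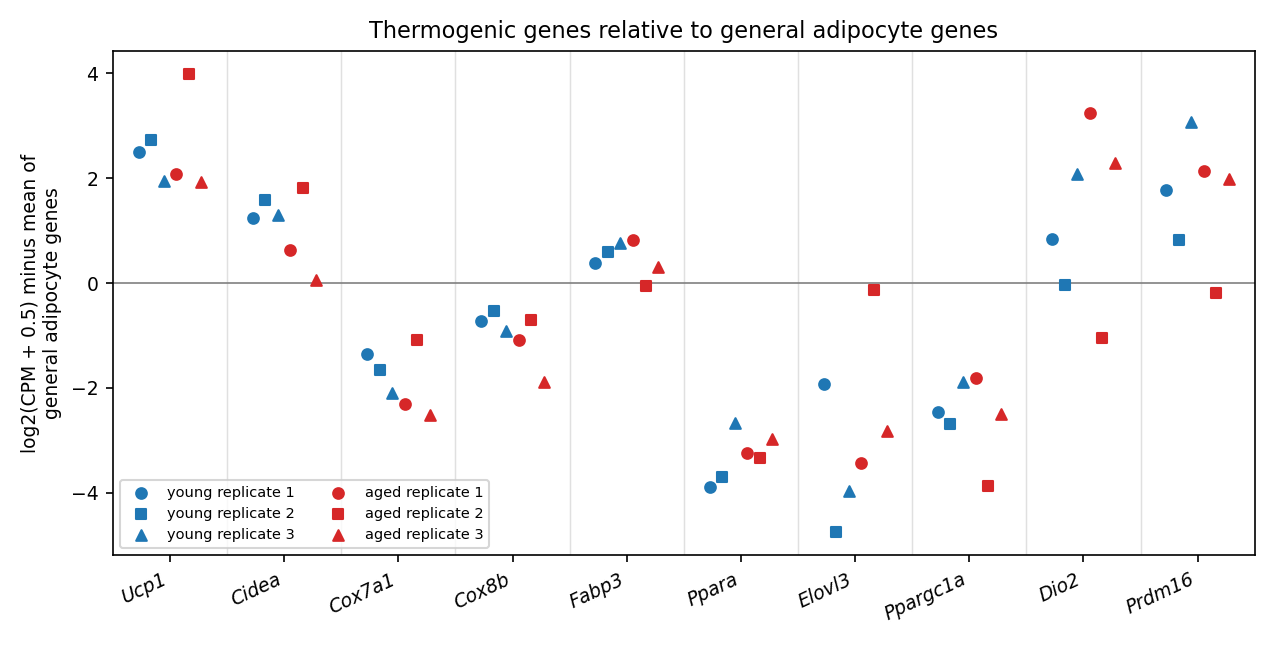
Log2(CPM + 0.5) of each thermogenic gene less the mean of 12 general adipocyte genes of the same library (vertical axis, log2 units), with young libraries in blue and aged in red. Ucp1, Cidea, Cox7a1 and Elovl3 are highest in aged replicate 2, at 4.0, 1.80, -1.09 and -0.14, and young and aged points overlap in every gene.

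Ratios to a related gene within the same library, which do not depend on scaling, were taken for 8 of the genes from FPKM. Fabp3 over Fabp4, its relative in adipocytes and capillaries, was at 0.341, 0.485 and 0.323 in young and at 0.189, 0.308 and 0.147 in aged replicates 1, 2 and 3. Every aged ratio lay below every young ratio, and at the pseudocount of 0.1 this was the only one of the 8 ratios without overlap. The log2 difference was -0.88 (exact two-sided permutation test, p = 0.1, the smallest that 3 against 3 allows, adjusted p = 0.7 over 8 ratios). Fabp4 itself had a log2FC of 0.68 (edgeR adjusted p = 0.630). Cox7a1 over Cox7a2, the form of most other tissues, was at 0.240, 0.483 and 0.0988 in young and at 0.0497, 0.794 and 0.0871 in aged replicates 1, 2 and 3. Cox8b over Cox8a was at 0.354, 0.738 and 0.181 in young and at 0.0925, 0.829 and 0.108 in aged replicates 1, 2 and 3. In both pairs the brown fat form came closest to the common form in aged replicate 2 and remained below it in every library, although pseudogenes of the common forms could share their reads. Cidea over Cidec, the droplet protein of white and brown fat, was at 4.97, 4.53 and 4.53 in young and at 3.01, 5.60 and 1.44 in aged replicates 1, 2 and 3, so the young ratios were nearly level. Elovl3 over Elovl6 was at 0.493, 0.209 and 0.0782 in young and at 0.245, 0.950 and 0.681 in aged replicates, with a log2 difference of 1.25 (exact permutation test, p = 0.2). The log2 differences of Cox7a1, Cox8b, Cidea, Ppargc1a over Ppargc1b and Ppara over Pparg were -0.57, -0.83, -0.69, -0.56 and 0.26, with exact p of 0.4 to 0.7. All 8 adjusted p were 0.7.

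Ucp1 over Ucp2 spanned the widest range of these ratios, at 73.5, 113 and 21.8 in young and at 5.0, 276 and 5.83 in aged replicates 1, 2 and 3, with a log2 difference of -1.43 (exact permutation test, p = 0.5). Ucp2, a related mitochondrial carrier found in macrophages and many other cells, was at 8.96, 13.8 and 8.92 CPM in young and at 41.6, 22.1 and 49.5 CPM in aged replicates 1, 2 and 3. It was the 1 gene of 20 tested relatives with an unadjusted p under 0.05, with a log2FC of 1.84 (SE 0.34, edgeR adjusted p = 0.317), and 16 of the 20 were higher and 4 lower in aged aorta. All 6 macrophage genes were also higher at an unadjusted p under 0.05, with sums of 112, 90.6 and 85.6 CPM in young and 369, 116 and 246 CPM in aged replicates 1, 2 and 3, and their part in the level of Ucp2 was not tested.

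**Figure D5:**
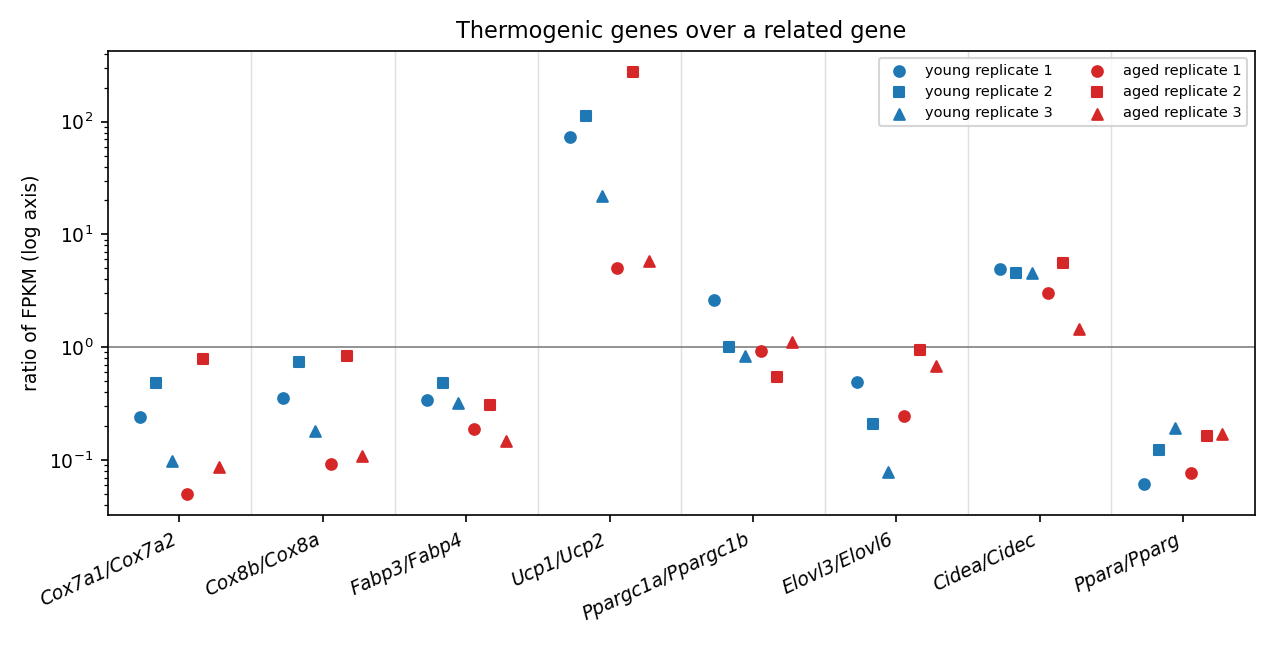
Ratio of FPKM of a thermogenic gene to a related gene in each library (vertical axis, log scale, no unit), with young libraries in blue and aged in red. Fabp3/Fabp4 is the ratio in which every aged point (0.147 to 0.308) lies below every young point (0.323 to 0.485).

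Other genes of brown fat often had the same high libraries as Ucp1. Of 14 tested brown adipocyte genes beside the 10, 12 were highest in aged replicate 2, and 9 had aged replicate 2 and young replicate 2 at the top. Higher in aged aorta were 12 and lower 2, with a median log2FC of 0.61, and S100b alone had an unadjusted p under 0.05 (log2FC 1.21, edgeR adjusted p = 0.422), a gene also used as a marker of Schwann cells. Without aged replicate 2, 12 of 15 tested genes were lower and 3 higher, with a median of -0.95. Otop1, a proton channel, was at 4.0, 9.46 and 0.758 CPM in young and at 0.903, 36.9 and 0.495 CPM in aged replicates 1, 2 and 3. Cpt1b, which brings fatty acids into mitochondria in muscle and brown fat, reached 110 CPM in aged replicate 2 and 79.1 CPM in young replicate 2, and was at 6.56 to 18.2 CPM elsewhere. Zic1 and Lhx8, markers of classical brown fat, had too few counts for a test. Zic1 reached at most 1.40 CPM, in aged replicate 2, from 53 counts there and 0 to 5 in the other libraries. Lhx8 reached at most 0.891 CPM, in young replicate 2, from 31 counts there and 0 to 12 in the other libraries. Ucp3 repeated the pattern of Ucp1 at 3.03, 11.5 and 1.28 CPM in young and 1.78, 30.8 and 2.16 CPM in aged replicates 1, 2 and 3. The 2 tested genes not highest in aged replicate 2 were Ebf2 and Ntrk3. Ebf2 was at 3.86, 7.47 and 4.55 CPM in young and at 7.37, 2.68 and 3.75 CPM in aged replicates 1, 2 and 3. Ntrk3 was highest in young replicate 3, at 314 CPM, and at 283 CPM in aged replicate 2.

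Genes along the path from the adrenergic receptor to oxidation are described in its order. Of 17 tested genes of adrenergic signalling and lipolysis, 13 were higher and 4 lower in aged aorta, with the median log2FC at 0.35, 0 had an unadjusted p under 0.05, and 8 had aged replicate 2 and young replicate 2 at the top. Lipe and Plin1 belong to this list and to the general adipocyte list. Without aged replicate 2, 11 were lower and 6 higher, with a median of -0.072. The receptor Adrb3, which is typical of adipocytes, was at 7.18, 7.59 and 2.30 CPM in young and at 1.11, 27.1 and 1.13 CPM in aged replicates 1, 2 and 3. By contrast Gnas and Prkaca, the G protein and kinase subunits that act in all cells, spanned 616 to 872 and 72.1 to 105 CPM. Of 22 genes of fatty acid oxidation, 19 had aged replicate 2 and young replicate 2 at the top, 21 were higher and 1 lower in aged aorta, and the median log2FC was 0.47. Cpt1a, the carnitine transferase of most tissues, had an unadjusted p under 0.05 (log2FC 0.59, edgeR adjusted p = 0.377). Without aged replicate 2, 19 of the 22 were lower and 3 higher, with a median of -0.46. Acadvl, which oxidizes very long fatty acids, was at 152, 238 and 102 CPM in young and at 126, 493 and 113 CPM in aged replicates 1, 2 and 3. Among 17 tested regulators of brown fat, 13 were higher and 4 lower with a median of 0.29, and Cebpb (2.03, adjusted p = 0.306), Tbx15 (0.87, adjusted p = 0.448) and Nrip1 (0.47, adjusted p = 0.421, all log2FC by edgeR) had an unadjusted p under 0.05. Cebpb, a transcription factor of fat cell formation and of inflammation, was at 5.49, 5.52 and 4.90 CPM in young and at 16.0, 34.1 and 14.8 CPM in aged replicates 1, 2 and 3. Every aged library was above every young library for these 3 genes, and below every young library for 1 other of the 17. Over all tested genes, 7.74% were higher and 8.78% lower without overlap, and 5.56% were higher at an unadjusted p under 0.05. Without aged replicate 2, 9 of the 17 regulators were higher and 8 lower, with a median of 0.016. In that edgeR fit 1 of the 17 passed an adjusted p of 0.05, as did 110 of all 17147 genes tested.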

How the data were processed

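Aorta RNA of 3 young and 3 aged mice (RNeasy and SMARTER mRNA-Seq kits) was sequenced single-ended. The authors deposited whole-number read counts per gene and FPKM, which are proportional to the counts. The submitters' processing notes name build mm10, and the aligner, counter, annotation and strand setting are not given in the sources used here. Coordinates are from GENCODE M21. Counts (55335 genes) were filtered with edgeR 4.0.16 in R 4.3.3 (filterByExpr, minimum count 10, minimum total 15) and normalized by TMM. They were fitted by quasi-likelihood without covariates, with Benjamini-Hochberg adjustment over 16612 genes. The fit was also run on simulated counts with the same dispersion for every gene and no outlying library. That run does not cover a library such as aged replicate 2, and its result is not given here. Exact permutation tests were two-sided. CPM took a pseudocount of 0.5 and FPKM ratios one of 0.1 on the log2 scale. The alternatives were RLE size factors, other filters and pseudocounts, a replicate block, DESeq2 1.42.0, limma 3.58.1 on log2 FPKM, removal of mitochondrial genes, Adipoq alone as the adipocyte level, raw count ratios and each library left out. Leaving out libraries for the gene lists was added after seeing the data. Replicates are separate mice. The 10 genes and the lists were chosen with earlier results of these data known. From each list, the 3 genes with the highest mean FPKM and those with an unadjusted p under 0.05 could be named, with the relatives and the 10 genes most like Ucp1. Adipoq, Otop1, Zic1, Lhx8, Ebf2, Ntrk3, Adrb3, Cox6a2 and Arntl were named after their values were seen. Tusc5 was taken for Trarg1, and Wdnm1 was not matched. Results for some listed genes are not reported here.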

Additional observations from a re-analysis of the deposited data

How the results depend on the processing

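The count of 0 of the 10 genes called was the same under every alternative run. The count over all genes was 0 with edgeR and limma under each setting with 6 libraries, 338 with DESeq2, and from 0 to 110 when 1 library was left out, the last without aged replicate 2. DESeq2 gave Elovl3 no p. With the replicate block edgeR called 0 genes, and the log2FC reversed to -0.54 for Cidea, -0.24 for Cox7a1 and -0.50 for Cox8b. Same-numbered libraries correlated at 0.079, 0.12 and 0.096 in their deviations from the group means, so the numbers were not taken to pair the mice, although every library correlated best with its own number, a hint from the data and not the design. With limma on log2(FPKM + 1) these 3 were -0.71, -0.43 and -0.70, and on log2(FPKM + 0.1) -0.75, -0.53 and -0.74, where the median over all genes was -0.12 and -0.19. The cause was not tested. No other fold change reversed with 6 libraries, but the sizes of others changed. Ucp1 was at 1.46 in the main fit, 0.34 with the replicate block, and 0.089 and 0.081 with limma on log2(FPKM + 1) and log2(FPKM + 0.1). In the same order Ppara was at 0.77, 0.27, 0.13 and 0.10, and Prdm16 at -0.53, -0.55, -0.68 and -0.76. With 1 library left out, log2FC ranged from -1.68 to 2.39 for Ucp1, -2.25 to 1.33 for Cidea, -1.13 to 4.99 for Elovl3, -2.13 to 1.32 for Cox7a1, -2.07 to 0.97 for Cox8b, -1.13 to 0.64 for Fabp3, -0.77 to 1.44 for Ppara and -0.88 to 0.058 for Ppargc1a, so all 8 changed sign. Dio2 (0.36 to 0.97) and Prdm16 (-0.66 to -0.37) kept theirs, and Prdm16 had an unadjusted p under 0.05 in every fit of 6 libraries but in 2 of the 6 that left 1 out, those without aged replicate 2 or 3. Elovl3 was not tested with at least 10 counts in every library.

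Relative to the adipocyte genes, the differences with 1 library left out changed sign for Ucp1 (-0.38 to 0.65), Dio2 (-0.34 to 1.80), Ppargc1a (-0.84 to 0.19), Prdm16 (-1.10 to 0.18) and Cox7a1 (-0.71 to 0.0051). Against Adipoq alone they were 0.077 for Cox7a1 and 0.12 for Fabp3. The log2 ratios changed sign for Cox7a1 over Cox7a2 (-1.75 to 0.23) and Ppara over Pparg (-0.13 to 0.65), whereas Fabp3 over Fabp4 stayed between -1.17 and -0.64. With a pseudocount of 1 the groups of Elovl3 over Elovl6 did not overlap either, at a log2 difference of 0.79 (exact permutation test, p = 0.1).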

Other observations

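Factors that brown fat secretes and genes of other heat-producing cycles are given here beside the 10 genes. Of 9 tested secreted factors, 3 were highest in aged replicate 2, where 17.7% of all genes were, and 7 were higher and 2 lower in aged aorta, with the median log2FC at 0.80. Igf1, insulin-like growth factor, was at 41.2, 37.9 and 39.9 CPM in young and at 161, 41.9 and 104 CPM in aged replicates 1, 2 and 3, and log2FC 1.37 (edgeR adjusted p = 0.390). Gdf15, a hormone of cell stress, was at 0.175 to 0.661 CPM in young and 1.03 to 2.62 CPM in aged aorta, and the chemokine Cxcl14 at 0 to 0.186 and 0.451 to 1.99 CPM. Both groups were apart in each of the 3 genes, all with an unadjusted p under 0.05. Over all tested genes, 7.74% were higher without overlap and 5.56% were higher at such a p. The gap of Igf1 was narrow, at 41.9 against 41.2 CPM, and Cxcl14 had 9, 4 and 0 counts in young replicates 1, 2 and 3. Without aged replicate 2, 8 of 10 tested factors were higher and 2 lower. In that edgeR fit 1 of the 10 passed an adjusted p of 0.05, as did 110 of all 17147 genes. Of 9 tested genes of creatine and calcium cycling, 5 were higher and 4 lower with a median of 0.15, and 1 was highest in aged replicate 2. Atp2a2, the calcium pump of heart and smooth muscle, was at 553, 555 and 698 CPM in young and at 446, 477 and 447 CPM in aged replicates 1, 2 and 3 (log2FC -0.40, edgeR adjusted p = 0.466), and every aged library was below every young one.

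Genes of the respiratory chain were read separately for the mitochondrial and the nuclear genome. Each of the 13 genes of the mitochondrial genome had a positive log2FC (median 0.83). Of these, 12 had an unadjusted p under 0.05, 0 passed after adjustment, and 1 was highest in aged replicate 2. The share of all tested genes higher at such a p was 5.56%. Mitochondrial genes held 21.2%, 16.7% and 14.9% of the counts in young and 23.1%, 26.7% and 30.4% in aged replicates 1, 2 and 3. The 13 genes share this fraction of their library, so the 12 are not separate results. Whether any gene differed beyond that fraction was not tested. Of 6 other nuclear genes of cytochrome c oxidase, 4 were higher and 2 lower with a median of 0.22 and 0 at an unadjusted p under 0.05, and Cox6a1, the form of most tissues, was at 142, 139 and 99.4 CPM in young and 161, 218 and 109 CPM in aged replicates 1, 2 and 3.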
